A study of Rattus norvegicus with 16 samples.

Results

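Intermediate filaments of the rat sciatic nerve were followed through 10 genes that encode their glial, mesenchymal and neuronal subunits. The rule names the genes and uses no value of theirs, though the family was picked with earlier results of these data known, and all 10 were found among the 31038 genes of the deposited tables. They are Gfap, Vim, Des and Prph of type III, Nefl, Nefm, Nefh and Ina of type IV, and Nes and Synm, which are placed in type IV or VI. RNA had been sequenced in 16 libraries, 2 per group. The 8 groups were acutely purified Schwann cells and whole sciatic nerve, each from uncrushed rats and from rats 3, 5 and 7 days after a crush of the sciatic nerve at postnatal day 18, the age given for every sample. With surgery at that age, rats were older the later after crush they were taken, although the label does not change. Age at collection therefore cannot be told apart from the crush or from the day after it. No transgene was used. Crushed rats had surgery under isoflurane and the analgesic carprofen, an anti-inflammatory drug, and uncrushed rats had no sham operation, so the crush and these other parts of the surgery cannot be told apart. In injured rats only the nerve beyond the crush was taken, and in uncrushed rats the matching stretch. Each sample pooled at least 10 nerves, so the spread between the 2 libraries of a group is a spread between pools, and the p-values below measure that spread. To purify Schwann cells, the digested nerve was passed over dishes that removed cells with CD45 or Thy1 on their surface, and the cells that bound the antibody O4 were kept. The study reports fewer cells recovered from each uncrushed nerve than from each crushed one. In Schwann cells, the crush and this unequal recovery therefore cannot be told apart. Whole nerve was not dissociated. The study also describes nerve that was dissociated but not panned, which was not analysed here, so within these 16 libraries the type of cell and the handling of the tissue cannot be told apart.

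Intermediate filaments are rope-like polymers of the cytoskeleton, built from subunits that differ between cell types. In the nerve, Gfap marks Schwann cells that do not make myelin, vimentin is shared by Schwann cells, fibroblasts, endothelium and macrophages, and nestin belongs to immature and dividing cells as well as to some endothelial cells and pericytes. Nefl, Nefm and Nefh encode the light, medium and heavy neurofilament proteins, which fill axons and set their calibre, while the cell bodies of those axons lie outside the nerve. After a crush, axons beyond the injury degenerate, and Schwann cells leave the myelinating state and change shape.

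The sum of expected counts lay between 10555067 and 27562637 per library. All 10 markers of Schwann cells were above a floor of 3 counts in every library. Where both libraries of a group were at or under this floor, any fold given is a bound or a ratio of summed counts. The exception is the ranges of Nefh with 1 library left out. In uncrushed tissue Sox10, Ngfr, Erbb3, Cdh19 and Foxd3, among these markers, were higher in purified Schwann cells than in whole nerve, and S100b, Mbp and Prx were lower. Summed over its list, the TPM of 7 macrophage genes was 5.06 to 24.4 in Schwann cells and 195 to 863 in whole nerve. The 6 fibroblast genes summed to 2918 to 3077 TPM in uncrushed and 378 to 666 in crushed Schwann cells, against 10181 to 13015 in whole nerve. Of these 6, Col3a1 was called lower in crushed than in uncrushed Schwann cells at each day (34.8-, 24.8- and 9.74-fold). Col1a1 was called lower at days 3 and 5 and Dcn at day 5, while Fn1 was called higher at day 3 (3.35-fold). The sum hides how unevenly the 6 genes differed between the preparations before crush. Dcn, Lum, Pdgfra and Fn1 were then 179-, 175-, 96.0- and 44.0-fold lower in Schwann cells, and the collagens Col1a1 and Col3a1 6.46- and 2.92-fold lower (edgeR). Uncrushed whole nerve stood apart in its composition. Its 10 most abundant genes took 24.2% and 23.9% of the counts, against 12% to 15.5% in crushed whole nerve. Its TMM scaling factors, which correct library totals for such genes, were 0.820 and 0.821, against 1.01 to 1.05 in crushed whole nerve. With library totals alone, the median gene of whole nerve moved up by 0.41, 0.40 and 0.41 on the log2 scale at days 3, 5 and 7. The share of called genes that were higher went with it from 50.7%, 49.2% and 49.3% to 79.2%, 81.2% and 85.8%. In Schwann cells the same shifts were -0.06, 0.02 and 0.04. FPKM, a level scaled by transcript length and library total, follows those totals. Fold changes come from edgeR on TMM-scaled counts and are relative to that shift.

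The stretches just upstream of Gfap, Nes and Vim are shown because these were the 3 members with the highest FPKM in uncrushed Schwann cells. The table of promoters, from RefSeq on GRCr8, held 7 of the 10 genes (Nefl, Nefm and Nefh were not in it), and the 250 bases before each start are printed 5′ to 3′ on the strand of the gene. Capitals mark 5 motifs, searched on both strands. The GC box was searched as GGGCGG and the TATA motif as TATAAA. The AP-1 motif was searched as TGANTCA, the CRE motif as TGACGTCA and the SOX motif as ACAAAG. There was no overlap between hits in the stretches printed. Gfap lies at chr10:88361662-88361911 on the minus strand, Nes at chr2:175736338-175736587 and Vim at chr17:81577011-81577260, both on the plus strand.
Gfap: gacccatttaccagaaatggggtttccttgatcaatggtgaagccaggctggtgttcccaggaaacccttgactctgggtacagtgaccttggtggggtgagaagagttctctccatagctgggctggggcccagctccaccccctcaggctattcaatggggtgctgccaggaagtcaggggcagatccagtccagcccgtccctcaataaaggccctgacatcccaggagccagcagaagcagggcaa
Nes: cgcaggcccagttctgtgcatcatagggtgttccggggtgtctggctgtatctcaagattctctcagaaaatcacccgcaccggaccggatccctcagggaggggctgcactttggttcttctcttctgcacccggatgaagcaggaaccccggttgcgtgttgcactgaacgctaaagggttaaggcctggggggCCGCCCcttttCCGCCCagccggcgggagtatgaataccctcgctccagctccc
Vim: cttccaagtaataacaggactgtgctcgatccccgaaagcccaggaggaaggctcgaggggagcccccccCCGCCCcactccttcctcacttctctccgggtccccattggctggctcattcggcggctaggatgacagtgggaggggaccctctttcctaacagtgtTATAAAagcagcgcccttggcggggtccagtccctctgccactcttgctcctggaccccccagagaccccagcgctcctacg
Of the 5 motifs, none was in the Gfap stretch, 1 was in that of Nes (2 GC boxes) and 2 were in that of Vim (1 GC box and 1 TATA). The GC box was in 30.5% of the 33469 stretches of the same length, TATA in 12.9%, SOX in 16.3%, AP-1 in 6.34% and CRE in 1.59%. The stretch of Synm held none of the 5, Prph a GC box and a TATA, and Ina and Des GC boxes alone. GC content was 57.6% for Gfap, 60.4% for Nes and 62.4% for Vim, with a median of 51.2% over all stretches. These are matches of letters within a short window.

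Vimentin made up most of the family's transcripts in both preparations. Its share of the summed TPM of the 10 genes was 94.0% to 95.3% in Schwann cells and 88.1% to 96.3% in whole nerve. The family as a whole took 0.645% to 0.754% of all TPM in uncrushed Schwann cells and 1.49% to 1.87% after crush. In whole nerve it took 0.168% to 0.187% before crush and 0.526% to 0.775% after. What lay beneath vimentin was exchanged in Schwann cells. Gfap held 2.92% and 3.16% of the family in the uncrushed libraries, ahead of Nes with 0.877% and 1.15%. At day 3 Nes held 3.23% and 3.42%, and Gfap 0.311% and 0.253%. By FPKM, Gfap held rank 2 of the 10 genes in uncrushed Schwann cells and rank 5 at days 3, 5 and 7, and Nes moved from rank 3 to rank 2. In whole nerve Nes held rank 2 in every group, and Gfap rank 5, 6 or 7. Among the higher members, the ranges of Nefl and Nefm overlapped in uncrushed and day 5 Schwann cells and in whole nerve at days 3 and 7, and those of Des and Nefm in uncrushed whole nerve. Among the low members Prph, Des, Ina and Nefh, at least 1 pair of neighbours overlapped in every group but the uncrushed ones.

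**Figure D1:**
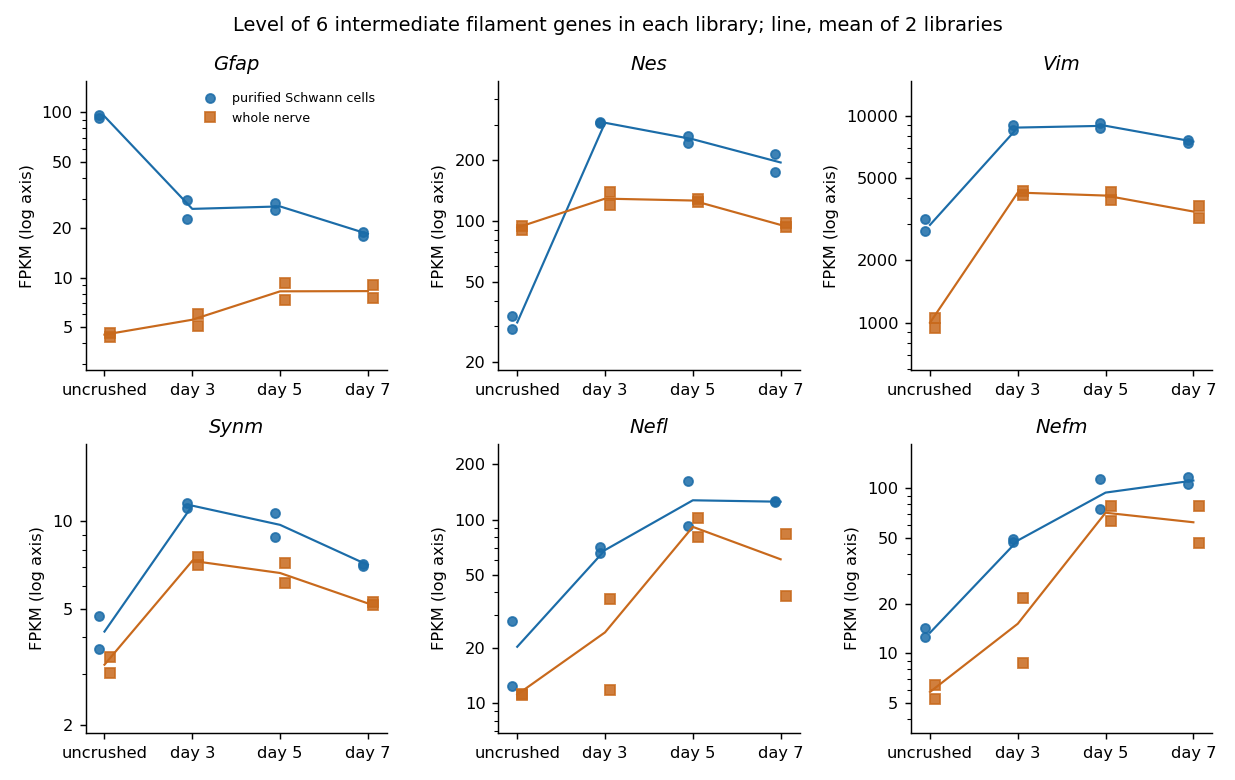
FPKM of Gfap, Nes, Vim, Synm, Nefl and Nefm on log axes in each of the 16 libraries (circles, purified Schwann cells; squares, whole nerve; lines join the means of 2 libraries) in uncrushed tissue and 3, 5 and 7 days after crush. Gfap in Schwann cells lay at 92.7 and 96.9 uncrushed and between 17.8 and 29.4 after crush, while Nes crossed from below whole nerve in uncrushed tissue to above it at each day after crush.

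Gfap, the gene of glial fibrillary acidic protein, fell in Schwann cells at every day after crush and was not called against uncrushed tissue in whole nerve. Uncrushed Schwann cells held 96.9 and 92.7 FPKM (replicates 1 and 2). The crushed ones held 29.4 and 22.8 (day 3), 25.8 and 28.1 (day 5), and 19.0 and 17.8 (day 7). Both uncrushed libraries lay above all 6 crushed ones. The log2 fold changes were -1.81 ± 0.12 (standard error of the fit, as for every ± below), -1.84 ± 0.12 and -2.41 ± 0.12 (edgeR, adjusted p = 1.73e-06, 1.97e-06 and 7.26e-07), or 3.52-, 3.58- and 5.30-fold lower. In whole nerve, uncrushed libraries held 4.63 and 4.4 FPKM, and crushed ones 5.12 and 6.0 (day 3), 9.25 and 7.27 (day 5), and 9.04 and 7.53 (day 7). All 6 crushed libraries lay above the uncrushed ones on this scale, which follows library totals. The TMM-scaled log2 fold changes were -0.11 ± 0.17, 0.46 ± 0.17 and 0.47 ± 0.17 (edgeR, adjusted p = 0.638, 0.0554 and 0.0636). With library totals alone they were 0.30, 0.86 and 0.87 (adjusted p = 0.163, 0.00177 and 0.00207), so the sign at day 3 turned. At days 5 and 7 the fit of all 16 libraries gave 0.56 and 0.56 (adjusted p = 0.0121 and 0.0157), and leaving out replicate 2 of the day gave 0.63 and 0.61 (adjusted p = 0.0389 and 0.0461). The effect of crush differed between the preparations by -1.81 ± 0.21, -2.42 ± 0.20 and -2.99 ± 0.21 (edgeR, adjusted p = 1.66e-05, 1.23e-06 and 2.44e-07). Of 5 markers of satellite glia, which also express Gfap, the summed TPM went beside it in Schwann cells from 328 and 369 uncrushed to between 107 and 156 after crush, and in whole nerve from 233 and 248 to between 312 and 366. Of the 4 tested in Schwann cells, 3, 3 and 2 were called lower and 0, 1 and 2 higher at days 3, 5 and 7, beside 25.7%, 25.6% and 21.9% of all genes lower and 26.9%, 29.0% and 25% higher. Slc1a3 and Glul were lower at each day, Kcnj10 was lower at days 3 and 5 and higher at day 7, and Gja1 was higher at days 5 and 7. Fabp7 was at or under the floor in all 8 groups and was not tested. Against whole nerve, uncrushed Schwann cells held 47.2-fold less Gja1, 10.2-fold less Slc1a3 and 5.49-fold more Kcnj10, and Glul was not called. The sum of 5 perineurial markers was 253 and 271 TPM in uncrushed and 112 to 129 in crushed Schwann cells, where 1, 2 and 2 of 3 tested were lower and 0 higher. Against whole nerve, uncrushed Schwann cells held 188-fold less Cldn1, 2.73-fold less Slc2a1 and 2.08-fold more Itgb4. Msln and Lypd2 were at or under the floor in uncrushed Schwann cells. The study reports transcripts of both cell types as depleted in its purified Schwann cells. The part of either cell type in the level of Gfap was not tested. In bulk samples, fewer cells of a type and less RNA in each cannot be told apart, and the recovery of cells differed between uncrushed and crushed nerve.

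Vim, the mesenchymal and glial type III subunit, rose in both preparations. Schwann cells held 3166 and 2765 FPKM uncrushed, then 8961 and 8548 (day 3), 8676 and 9180 (day 5), and 7343 and 7636 (day 7). Whole nerve held 942 and 1055 uncrushed, then 4152 and 4344 (day 3), 3927 and 4290 (day 5), and 3203 and 3677 (day 7). No crushed library overlapped an uncrushed one in either preparation. The log2 fold changes in Schwann cells were 1.61 ± 0.10, 1.56 ± 0.10 and 1.30 ± 0.10 (edgeR, adjusted p = 8.51e-07, 1.30e-06 and 5.97e-06). Those in whole nerve were 1.68 ± 0.10, 1.63 ± 0.10 and 1.37 ± 0.10 (edgeR, adjusted p = 5.16e-07, 8.38e-07 and 4.32e-06). The effect in Schwann cells minus that in whole nerve was -0.17 ± 0.14, -0.19 ± 0.14 and -0.20 ± 0.14 (edgeR, adjusted p = 0.414, 0.340 and 0.332), and with library totals alone -0.53, -0.46 and -0.45 (adjusted p = 0.0158, 0.0371 and 0.0392). Macrophage markers went beside Vim in whole nerve from 195 and 213 summed TPM to between 508 and 863, and lay between 5.06 and 24.4 in Schwann cells. Their part in the rise of Vim was not tested.

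Nes, the gene of nestin, rose in Schwann cells from 29.2 and 33.7 FPKM uncrushed to 304 and 308 (day 3), 243 and 264 (day 5), and 175 and 214 (day 7). All 6 crushed libraries lay above both uncrushed ones. The log2 fold changes were 3.33 ± 0.14, 2.98 ± 0.14 and 2.58 ± 0.13 (edgeR, adjusted p = 1.15e-07, 2.38e-07 and 7.49e-07), or 10.1-, 7.87- and 5.98-fold. Whole nerve held 94.7 and 90.5 FPKM uncrushed, then 119 and 138 (day 3), 124 and 128 (day 5), and 93.6 and 97.5 (day 7), and the libraries of day 7 overlapped the uncrushed ones. The TMM-scaled log2 fold changes there were 0.06 ± 0.09 and 0.04 ± 0.09 at days 3 and 5 (edgeR, adjusted p = 0.596 and 0.757) and -0.37 ± 0.09 at day 7 (adjusted p = 0.00916). With library totals alone they were 0.47, 0.44 and 0.04 (adjusted p = 0.00147, 0.00259 and 0.763), so the sign at day 7 turned. The call at day 7 was also lost without uncrushed replicate 1 (-0.33, adjusted p = 0.0534) and in the fit of all 16 libraries (-0.28, adjusted p = 0.0817). The effect of crush in Schwann cells exceeded that in whole nerve by 3.17 ± 0.16, 2.82 ± 0.16 and 2.83 ± 0.16 (edgeR, adjusted p = 1.86e-08, 4.12e-08 and 4.90e-08). Endothelial markers summed to 139 to 201 TPM in whole nerve and 2.27 to 13.8 in Schwann cells. Markers of pericytes and smooth muscle summed to 445 to 695 TPM in whole nerve, 123 to 151 in uncrushed and 19.8 to 43.0 in crushed Schwann cells. Their part in the level of Nes was not tested.

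Synm encodes synemin, a large subunit that joins vimentin or desmin filaments to other structures. Schwann cells held 4.73 and 3.65 FPKM uncrushed, then 11.6 and 11.1 (day 3), 10.7 and 8.81 (day 5), and 7.14 and 7.04 (day 7). Crushed libraries all lay above the uncrushed pair, and the fold changes on the log2 scale were 1.49 ± 0.14, 1.19 ± 0.14 and 0.70 ± 0.14 (edgeR, adjusted p = 1.54e-05, 7.49e-05 and 0.00251). Whole nerve held 3.44 and 3.01 FPKM uncrushed, then 7.57 and 7.08 (day 3), 6.13 and 7.18 (day 5), and 5.29 and 5.18 (day 7), again without overlap. The gene rose there at days 3 and 5 (0.81 ± 0.12 and 0.65 ± 0.12, edgeR, adjusted p = 2.99e-04 and 0.00165). At day 7 the log2 fold change was 0.32 ± 0.12 (adjusted p = 0.0709), and 0.72 with library totals alone (adjusted p = 6.69e-04). At day 3 the effect was larger in Schwann cells than in whole nerve by 0.58 ± 0.19 (edgeR, adjusted p = 0.0334). That call was lost with library totals alone (0.22, adjusted p = 0.416). It was also lost without uncrushed Schwann cell replicate 2, uncrushed whole nerve replicate 1 or any of the 4 libraries of day 3, at values from 0.44 to 0.64.

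The neurofilament genes Nefl and Nefm rose in Schwann cells at every day. Nefl was at 12.3 and 28.1 FPKM uncrushed, then 70.6 and 65.8 (day 3), 162 and 92.8 (day 5), and 124 and 126 (day 7). The uncrushed libraries differed from each other, yet both lay below all crushed ones. Its log2 fold changes were 1.79 ± 0.36, 2.63 ± 0.36 and 2.58 ± 0.36 (edgeR, adjusted p = 0.00220, 2.43e-04 and 3.54e-04), and 2.51, 3.35 and 3.31 without uncrushed replicate 2. Nefm was at 12.5 and 14.1 FPKM uncrushed, then 49.0 and 47.5 (day 3), 114 and 74.4 (day 5), and 116 and 106 (day 7). Its groups did not overlap either, and its log2 fold changes were 1.91 ± 0.19, 2.80 ± 0.20 and 3.03 ± 0.20 (edgeR, adjusted p = 3.02e-05, 3.15e-06 and 3.24e-06).

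In whole nerve both were called at days 5 and 7. Nefl was at 11.2 and 11 FPKM uncrushed, then 11.7 and 36.8 (day 3), 80.7 and 102 (day 5), and 83.0 and 38.3 (day 7). Nefm was at 6.38 and 5.25 uncrushed, then 8.68 and 21.5 (day 3), 63.6 and 78.6 (day 5), and 78.0 and 46.5 (day 7). For both genes replicate 1 of day 3 was near the uncrushed level and replicate 2 above it, while at day 7 replicate 1 was the higher. At day 3 the log2 fold changes were 0.71 ± 0.47 for Nefl and 0.95 ± 0.38 for Nefm (edgeR, adjusted p = 0.247 and 0.0629). Without replicate 1 of day 3 they were 1.31 and 1.46 (adjusted p = 0.0197 and 0.00329), and without replicate 2 Nefl was at -0.31 (adjusted p = 0.587). Nefm at day 3 also passed with library totals alone (1.37, adjusted p = 0.0101) and in the fit of all 16 libraries (1.02, adjusted p = 0.0310). At days 5 and 7 Nefl was higher by 2.63 ± 0.48 and 2.04 ± 0.48 (adjusted p = 0.00168 and 0.00831), the second lost without replicate 1 of day 7 (1.40, adjusted p = 0.0664). Nefm was higher by 3.20 ± 0.39 and 3.00 ± 0.38 (adjusted p = 1.06e-04 and 2.04e-04). The difference between the preparations in the effect of crush was not called for either gene (edgeR, adjusted p = 0.220 at the lowest). Without whole nerve replicate 2 of day 3 it was called at that day for both (2.01 and 1.63, adjusted p = 0.0423 and 0.0113).

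The pair moved together across libraries. Over the 16 libraries the Pearson correlation of Nefl with Nefm, on log2 of TMM-scaled CPM, was 0.972, and each was the gene most like the other among 16828. The points share their libraries and 8 groups, so this is a description. Nefl and Nefm are neighbours on the chromosome in the RefSeq record of GRCr8, and the authors placed both in module 9 of the 10 modules of co-expressed genes they built from Schwann cells. The ratio of Nefl to Nefm, both in FPKM, was 0.989 and 1.99 in uncrushed Schwann cells and 1.06 to 1.44 after crush. In whole nerve it was 1.76 and 2.09 before and 0.825 to 1.71 after.

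Of 13 markers of neurons, Rbfox3, Scn10a, Isl1 and Chat were at or under 3 counts in both libraries of all 8 groups. The summed TPM of the list was 53.4 and 39.3 in uncrushed and 8.24 to 13.4 in crushed Schwann cells. In whole nerve the sums were 18.2 and 18.2 uncrushed and 7.16 to 16.5 after crush. Scn9a, a sodium channel, made up 71% to 88.3% of the summed FPKM of the list in Schwann cells and 6.53% to 30.2% in whole nerve. Between the uncrushed preparations Scn9a was higher in Schwann cells, while Elavl4, Snap25, Syt1 and Stmn2 were lower, of 7 markers tested, beside 29.1% of all genes higher and 35.3% lower. Scn9a was at 19.8 and 15.7 FPKM in uncrushed Schwann cells and 3.09 to 5.49 after crush. Of 4 markers tested in Schwann cells, Scn9a and Stmn2 were called lower at each day and 0 higher, beside the 25.7%, 25.6% and 21.9% of all genes called lower at days 3, 5 and 7. Stmn2, an axonal growth gene, had 28 and 25 counts in uncrushed Schwann cells and 10 and 8 at day 3, and was lower there by 2.11 ± 0.56 on the log2 scale (edgeR, adjusted p = 0.0103). In whole nerve Stmn2 was at 6.86 and 6.28 FPKM uncrushed and 1.59 to 6.08 after crush, and was called lower at days 3 and 5. Of 5 markers tested there, 2 were lower at days 3 and 5, and at day 7 Snap25 was lower and Scn9a higher, beside 22.5%, 19.5% and 15.9% of all genes lower and 15.4% higher at day 7. The source of the Nefl and Nefm transcripts was not tested.

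**Figure D2:**
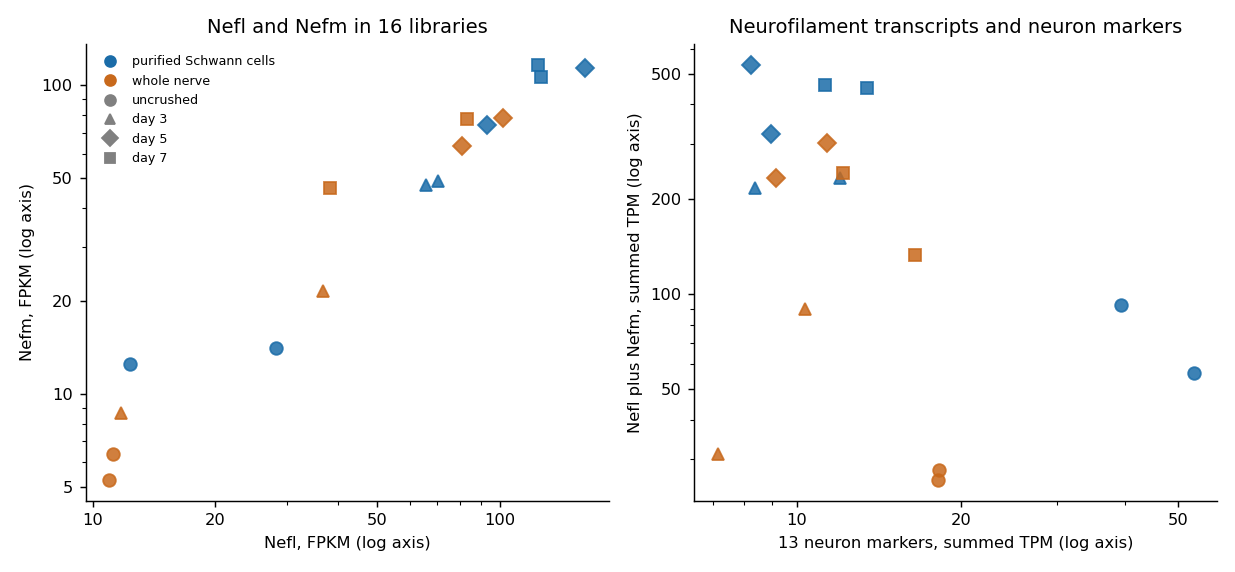
Left, Nefm against Nefl (FPKM, log axes) in 16 libraries; right, summed TPM of Nefl and Nefm against summed TPM of 13 neuron markers (log axes), with colour for the preparation and symbols for uncrushed tissue and days 3, 5 and 7. The uncrushed Schwann cell libraries have the highest sums of neuron markers, 39.3 and 53.4 TPM, of which Scn9a makes up 87.5% and 84.2% by FPKM, and lie below all crushed Schwann cell libraries in Nefl and Nefm.

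Nefh, the heavy neurofilament subunit, was low throughout. All 8 Schwann cell libraries held 0 to 3 counts, and it was not tested there. Whole nerve held 21 and 12 counts uncrushed (0.37 and 0.31 FPKM), 0 and 6 (day 3), 3 and 2 (day 5), and 5 and 4 (day 7). It was called lower at days 3 and 5 (edgeR, adjusted p = 0.00904 and 0.0131). As a ratio of summed counts over scaled library totals, it was 10.3-fold lower at day 3 (exact 95% interval 4.27 to 30.1, 33 counts against 6) and 10.3-fold lower at day 5 (3.99 to 33.8, 33 counts against 5). These intervals cover counting error only and take counts as independent, which counts of amplified cDNA are not. Both libraries of day 5 were at or under the floor, so that ratio is rough. At day 7 the log2 fold change was -2.27 ± 0.82 (adjusted p = 0.0590). The call at day 3 was lost without replicate 1 of uncrushed tissue or of day 3. Leaving out replicate 1 of day 3 took the log2 fold change to -2.45 (5.46-fold lower), and without replicate 2 of day 3 the remaining library held 0 counts. The call at day 5 was lost without uncrushed replicate 1 or either library of day 5 (adjusted p = 0.0677 to 0.103). The ratio of Nefh to Nefm in FPKM was 0.0580 and 0.0590 in uncrushed whole nerve and 0 to 0.00372 after crush. Ina, the internexin subunit of neurons, held 0 to 7 counts in Schwann cells and 1 to 12 in whole nerve and passed the filter on low counts in no fit, so no change was detectable at this depth.

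Prph encodes peripherin, the type III subunit of peripheral neurons. Schwann cells held 14 and 8 counts uncrushed (0.63 and 0.40 FPKM) and 3 to 13 after crush (0.11 to 0.30 FPKM), so the uncrushed libraries were the higher ones on FPKM. At day 7, with 3 counts in each library, it was called lower (edgeR, adjusted p = 0.0495), and the ratio of summed counts was 4.32-fold (exact 95% interval 1.70 to 13, counting error only). That call was lost without any single library of the comparison, with DESeq2 (adjusted p = 0.181), without the filter (adjusted p = 0.109) and with library totals alone (adjusted p = 0.0540). Whole nerve held 29 and 21 counts uncrushed and 11 to 32 after crush, or 1.18 and 1.26 FPKM against 0.52 to 0.99. The log2 fold changes there were -0.85 ± 0.39, -1.34 ± 0.41 and -1.5 ± 0.42 (edgeR, adjusted p = 0.104, 0.0254 and 0.0218). The calls at days 5 and 7 were lost without any single library of the comparison, with DESeq2 (adjusted p = 0.114 and 0.0904) and with library totals alone (adjusted p = 0.0776 and 0.0546).

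Des, the gene of desmin, is the type III subunit of muscle and pericytes. Schwann cell libraries held 3 and 9 counts uncrushed and 5 to 17 after crush, and no day was called (edgeR, adjusted p = 0.683 to 0.908). Whole nerve held 5.52 and 9.37 FPKM uncrushed, then 6.54 and 6.13 (day 3), 6.09 and 5.21 (day 5), and 5.69 and 5.39 (day 7). The groups overlapped on this scale, with uncrushed replicate 2 the highest library. The TMM-scaled log2 fold changes were -0.63 ± 0.22, -0.79 ± 0.23 and -0.82 ± 0.23 (edgeR, adjusted p = 0.0421, 0.0193 and 0.0209). Uncrushed replicate 2 stood out for skeletal muscle as well. The TPM of 10 muscle genes summed to 1330 in it, to 64.0 in replicate 1 and to 11.7 to 156 in the crushed libraries. Without it the values of Des were -0.20, -0.37 and -0.40 (adjusted p = 0.434, 0.178 and 0.170). The calls were lost too without either crushed library of the day, and with library totals alone the values were -0.22, -0.39 and -0.41 (adjusted p = 0.426, 0.166 and 0.152). The part of muscle RNA in the level of Des was not tested beyond leaving this library out.

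**Figure D3:**
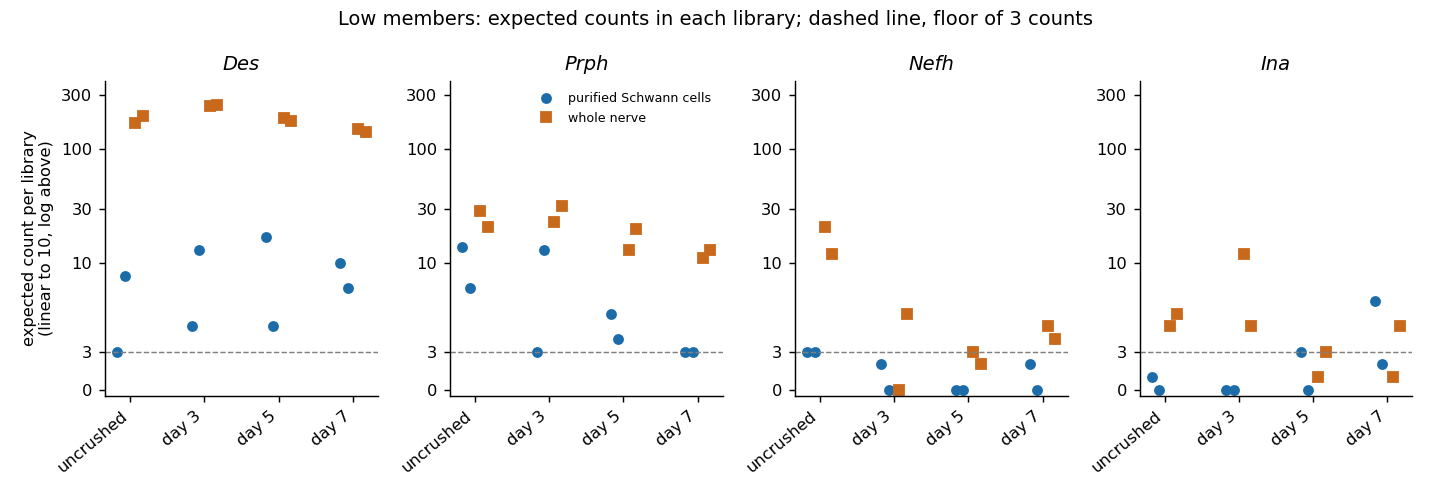
Expected counts of Des, Prph, Nefh and Ina in each library (axis linear to 10 and logarithmic above; circles, purified Schwann cells; squares, whole nerve; dashed line, floor of 3 counts). Des lay at 143 to 246 counts in whole nerve and 3 to 17 in Schwann cells, and Nefh never passed 3 counts in Schwann cells.

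Counted over the 8 members tested in Schwann cells, Nes, Vim, Synm, Nefl and Nefm rose at each day. At day 3 these 5 rose and 1 fell, where 26.9% of all 14961 genes tested were called higher and 25.7% lower (52.5% in all). At day 5 the counts were 5 and 1, beside 29.0% and 25.6% of all genes (54.6%), and at day 7 5 and 2, beside 25% and 21.9% (46.9%). The median log2 fold change of the tested members was 1.55, 1.38 and 1.00, and that of all genes 0.0034, 0.058 and 0.061. In whole nerve 9 members were tested. At day 3, 2 rose and 2 fell, beside 23.1% and 22.5% of 15831 genes (45.6%). At day 5, 4 rose and 3 fell, beside 18.9% and 19.5% (38.4%), and at day 7, 3 rose and 3 fell, beside 15.4% and 15.9% (31.3%). Their medians were 0.062, 0.46 and 0.32, and those of all genes 0.0029, -0.0086 and 0.016. By FPKM, of 6 members with a mean of 10 counts or more in Schwann cells, 5 had all crushed libraries above the uncrushed ones and 1 below, as did 30.2% and 24.5% of all such genes (54.7%). In whole nerve 5 of 8 were above and 1 below, beside 49.2% and 8.47% (57.6%). With 2 libraries against 2, an exact permutation test of a single gene cannot go below 0.333, so each call rests on the spread shared across genes in the fit.

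**Figure D4:**
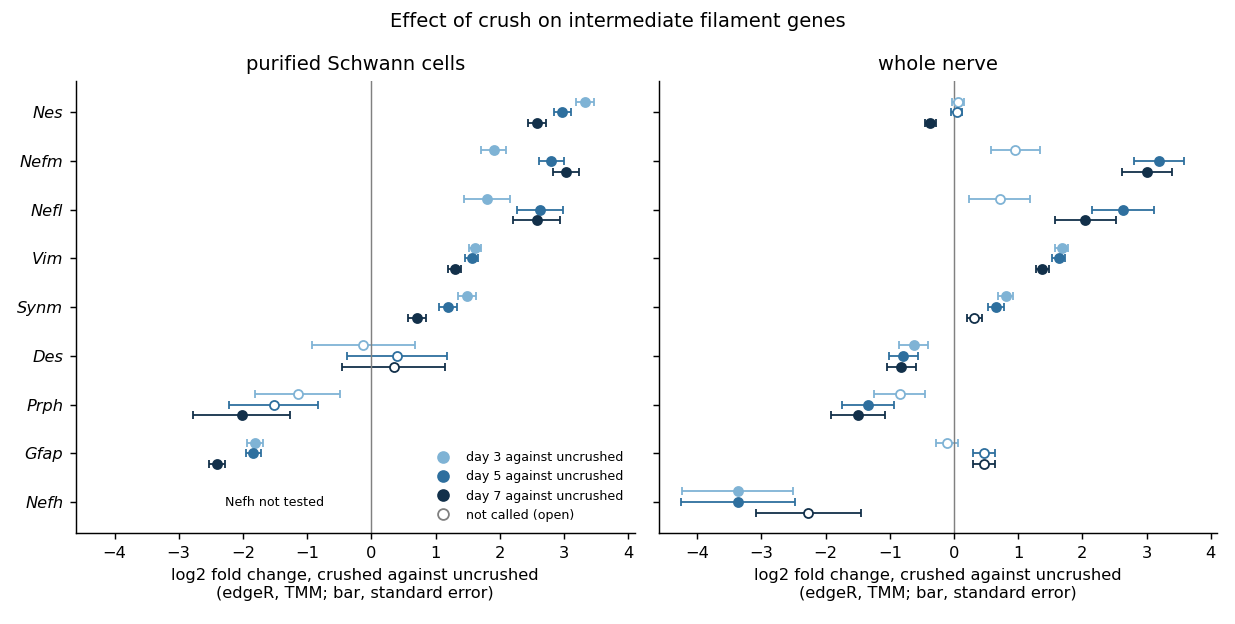
Log2 fold change of 9 members at days 3, 5 and 7 against uncrushed tissue, in purified Schwann cells (left) and whole nerve (right), with standard errors and open symbols where the adjusted p was 0.05 or more. Gfap lies at -1.81 to -2.41 in Schwann cells and at -0.11 to 0.47 in whole nerve, where the sign at day 3 turns with library totals. Nes lies at 2.58 to 3.33 against -0.37 to 0.06, where the sign at day 7 turns.

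Between the days after crush, in Schwann cells 1 of 8 was higher at day 5 than at day 3 and none lower, where 6.09% and 6.36% of all genes were (12.5% in all). At day 7 against day 5 none was higher and 1 lower, beside 1.18% and 0.769% (1.95%), and at day 7 against day 3, 1 was higher and 4 lower, beside 10.2% and 10.7% (21.0%). Nefm was the member that rose, by 0.89 ± 0.18 from day 3 to day 5 and by 1.12 ± 0.18 from day 3 to day 7 (edgeR, adjusted p = 0.0140 and 0.00245). The first of these was lost without replicate 1 of day 5 (0.53, adjusted p = 0.0733) or either library of day 3, and in the fit of all 16 libraries (adjusted p = 0.0740). From day 3 to day 5 the log2 value of Nefl was 0.83 ± 0.34 (adjusted p = 0.143), and Gfap, Nes, Vim, Synm, Prph and Des lay between -0.38 and 0.52 without a call. Gfap, Nes, Vim and Synm were lower at day 7 than at day 3, and their log2 values were -0.59 ± 0.12, -0.75 ± 0.13, -0.32 ± 0.09 and -0.79 ± 0.13 (edgeR, adjusted p = 0.00756, 0.00279, 0.0389 and 0.00282). For Gfap the direction was away from the uncrushed level, and for Nes, Vim and Synm toward it. The call of Gfap was lost without replicate 1 of day 3 or replicate 2 of day 7 (adjusted p = 0.0845 and 0.0553). That of Vim was lost without any of the 4 libraries, with upper quartile scaling (adjusted p = 0.0830) and with library totals alone (adjusted p = 0.171). Gfap was also lower at day 7 than at day 5 (-0.57 ± 0.12, edgeR, adjusted p = 0.0497), a call lost without any of the 4 libraries, with upper quartile scaling (adjusted p = 0.0586) and with library totals alone (adjusted p = 0.0711). In that comparison Nes, Vim, Synm, Nefl, Nefm and Des lay between -0.49 and 0.22 without a call. From day 3 to day 7 Nefl was at 0.78 ± 0.34 and Des at 0.47 ± 0.76 (adjusted p = 0.134 and 0.713), and Prph, at 3 counts in each library of day 7, was not called in either comparison.

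In whole nerve 2 of 9 members were higher at day 5 than at day 3 and none lower, beside 5.68% and 5.87% of all genes (11.5%). At day 7 against day 5, 1 was lower and none higher, beside 3.75% and 3.65% (7.40%), and at day 7 against day 3, 2 were higher and 2 lower, beside 9.85% and 11.4% (21.2%). Nefl and Nefm rose from day 3 to day 5 by 1.91 ± 0.45 and 2.24 ± 0.35 (edgeR, adjusted p = 0.0222 and 0.00391). The values were 2.95 and 3.02 without replicate 2 of day 3, and Nefl was at 1.32 without replicate 1 of day 3. The call of Nefl was lost without replicate 1 of day 3 or either library of day 5. Nes was lower at day 7 than at day 5 (-0.41 ± 0.09), and without any of the 4 libraries that call was lost (edgeR, adjusted p = 0.0213, and 0.0587 to 0.139 without a library). Nefm and Gfap were higher at day 7 than at day 3, by 2.05 ± 0.35 and 0.58 ± 0.17 (adjusted p = 0.00254 and 0.0332), and Nes and Synm had log2 fold changes of -0.43 ± 0.09 and -0.49 ± 0.11 (adjusted p = 0.00642 and 0.0129). Without replicate 2 of day 3 the value of Nefm was 2.83. The call of Gfap was lost without either library of day 3 or replicate 1 of day 7, that of Synm without replicate 1 of day 3 or replicate 2 of day 7, and that of Nes without replicate 2 of day 3 (adjusted p = 0.0735 to 0.203). Among the members not called, Gfap was at 0.57 ± 0.17 from day 3 to day 5 (edgeR, adjusted p = 0.0512), and Nefl at 1.33 ± 0.44 and Vim at -0.31 ± 0.10 from day 3 to day 7 (adjusted p = 0.0584 and 0.0521). Vim, Synm, Nes, Prph and Des lay between -0.50 and -0.023 from day 3 to day 5, and Gfap, Vim, Synm, Nefl, Nefm, Prph and Des between -0.59 and 0.0051 from day 5 to day 7. Prph and Des were at -0.65 and -0.19 from day 3 to day 7, and Nefh, at 0 to 6 counts, was not called.

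Set against whole nerve at the same time, purified Schwann cells held more Gfap and Vim at all 4 time points and less Prph and Des. In uncrushed tissue 3 members were higher and 4 lower of 9, beside 29.1% and 35.3% of 16829 genes (64.4%). At day 3 the counts were 6 and 2, beside 24.5% and 32.8% (57.3%). They were 4 and 2 at day 5, beside 23.2% and 28.4% (51.7%), and 4 and 2 at day 7, beside 22.4% and 28.7% (51.0%). The excess of Gfap was 16.9-fold in uncrushed tissue and 4.83-, 3.15- and 2.13-fold at days 3, 5 and 7 (edgeR, adjusted p = 7.18e-11, 8.54e-09, 2.13e-07 and 1.80e-05). Vim was 2.39-fold higher uncrushed and 2.13-, 2.09- and 2.09-fold higher after crush (adjusted p = 6.33e-07 at the highest). Nes was 3.64-fold lower in uncrushed Schwann cells and 2.46-, 1.93- and 1.96-fold higher after crush (adjusted p = 6.37e-09, 2.12e-07, 6.23e-06 and 5.42e-06). Synm differed by a log2 fold of 0.10 ± 0.14 in uncrushed tissue (adjusted p = 0.524, and 0.42 with library totals alone, adjusted p = 0.0172). It was higher at days 3, 5 and 7 by 0.69 ± 0.13, 0.52 ± 0.13 and 0.37 ± 0.13 (adjusted p = 3.26e-04, 0.00362 and 0.0274). The call of Synm at day 5 was lost without replicate 1 of either preparation (adjusted p = 0.0604 and 0.0570), and that at day 7 without any of the 4 libraries (adjusted p = 0.0692 to 0.128).

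For the neurofilaments the calls varied with the day. Nefm was higher in Schwann cells uncrushed and at day 3, by 0.87 ± 0.36 and 1.73 ± 0.33 (edgeR, adjusted p = 0.0448 and 4.17e-04), and the first was lost without any of the 4 uncrushed libraries (adjusted p = 0.0728 to 0.174). Nefl was called at day 3 (1.54 ± 0.47, adjusted p = 0.0115), and not without whole nerve replicate 1 of that day (0.95, adjusted p = 0.113). Without whole nerve replicate 2 of day 3 the values of Nefl and Nefm were 2.57 and 2.5. Nefl in uncrushed tissue was at 0.56 ± 0.51 (adjusted p = 0.347), and at day 5 Nefl and Nefm were at 0.43 ± 0.45 and 0.36 ± 0.31 (adjusted p = 0.442 and 0.360). At day 7 the values were 0.98 ± 0.46 for Nefl and 0.78 ± 0.32 for Nefm (adjusted p = 0.0875 and 0.0518), and without whole nerve replicate 1 they were 1.65 and 1.21 (adjusted p = 0.0306 and 0.0211). Des was 39.4-fold lower in uncrushed Schwann cells and 28.9-, 18.4- and 18.8-fold lower after crush (adjusted p = 1.18e-06 at the highest). With 3 and 9 counts in the uncrushed Schwann cells, the first became 24.8-fold without replicate 1 and 83.3-fold without replicate 2, and that of day 5 37.6-fold without Schwann cell replicate 1. Without the uncrushed whole nerve library high in muscle genes, the log2 fold was -4.88 against -5.30. Prph was 2.89-, 3.8- and 3.56-fold lower uncrushed and at days 3 and 5 (adjusted p = 0.0118, 0.00393 and 0.0109), the second 6.99-fold without Schwann cell replicate 2. At day 7 it was called lower (adjusted p = 0.00773), with a ratio of summed counts of 4.68-fold (exact 95% interval 1.86 to 14.0, counting error only). Those calls of Prph were lost without uncrushed Schwann cell replicate 2 (adjusted p = 0.0853), without replicate 2 of either preparation at day 5 (adjusted p = 0.0718 and 0.0743) and without Schwann cell replicate 1 at day 7 (adjusted p = 0.0684). Nefh was called lower in uncrushed Schwann cells (adjusted p = 0.0248), with a ratio of summed counts of 6.94-fold (exact 95% interval 2.87 to 20.3, counting error only), a call lost with DESeq2 (adjusted p = 0.0933) and without any of the 4 libraries. At days 3, 5 and 7, with 0 to 2 counts in Schwann cells and 0 to 6 in whole nerve, Nefh was not called (adjusted p = 0.387, 0.0972 and 0.171), and Ina was not tested. For the difference between preparations in the effect of crush, Nes and Synm were called higher and Gfap lower at day 3, beside 12.3% and 13.7% of all genes (26.0%). Nes was higher and Gfap lower at day 5, beside 12.6% and 14.9% (27.5%), and at day 7, beside 11.6% and 14.4% (26.0%). Synm was at 0.41 ± 0.19 and 0.27 ± 0.19 at days 5 and 7 (edgeR, adjusted p = 0.124 and 0.327), and Des, Prph and Nefh were not called at any day (adjusted p = 0.265 at the lowest).

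**Figure D5:**
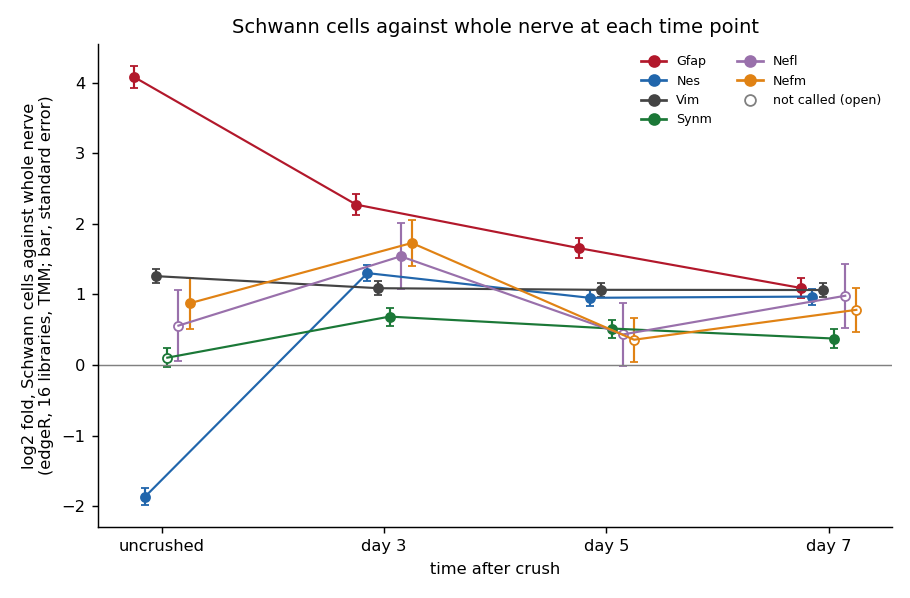
Log2 fold of purified Schwann cells against whole nerve for 6 members in uncrushed tissue and at days 3, 5 and 7 (edgeR fit of 16 libraries; bars, standard error; open symbols, adjusted p of 0.05 or more). Gfap descends from 4.08 to 1.09, Nes goes from -1.86 to between 0.95 and 1.30, and Vim stays between 1.06 and 1.26.

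Other intermediate filament genes were read from a list of keratins, lamins and lens or muscle subunits, 24 of which were in the tables. In Schwann cells 15 or 16 of them were at or under the floor in each group, and 7 were tested. The lamins, which line the nucleus, made up the calls at days 3 and 5. The 7 genes tested gave 3, 3 and 2 calls higher and 0 lower at days 3, 5 and 7, beside the 26.9%, 29.0% and 25% of all genes called higher. Lmna, Lmnb1 and Lmnb2 rose at day 3 by 0.85 ± 0.17, 0.56 ± 0.14 and 0.83 ± 0.16 (edgeR, adjusted p = 0.00217, 0.00890 and 0.00200), and again at day 5. At day 7 Lmnb2 (0.65 ± 0.16, adjusted p = 0.00945) and the simple keratin Krt8 (1.67 ± 0.54, adjusted p = 0.0279) were called, Krt8 from 5 counts in each uncrushed library to 24 and 14. In whole nerve the 3 lamins rose at each day, and 3, 2 and 1 of the 10 genes tested fell at days 3, 5 and 7, beside 23.1%, 18.9% and 15.4% of all genes higher and 22.5%, 19.5% and 15.9% lower. Lmnb2 was higher by 1.92 ± 0.20 at day 3 and 1.09 ± 0.21 at day 7, and Lmnb1 by 1.47 ± 0.15 at day 5 (adjusted p = 2.80e-05, 0.00261 and 2.67e-05). The keratin Krt5 had 15 and 10 counts in uncrushed whole nerve and 0 in every other library, at least 7.78-, 6.47- and 5.30-fold lower at days 3, 5 and 7 against the floor (adjusted p = 0.00394, 0.00616 and 0.00950).

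Of 13 genes for proteins that link intermediate filaments or keep them in order, 11 were tested in Schwann cells. At day 3, 2 rose and 6 fell, and at days 5 and 7 none rose and 7 fell, beside 26.9%, 29.0% and 25% of all genes higher and 25.7%, 25.6% and 21.9% lower. Their median log2 fold change was -0.65, -0.78 and -0.91, and that of all genes 0.0034, 0.058 and 0.061. Eppk1, which encodes epiplakin, had 160 and 139 counts in uncrushed Schwann cells, 14 and 13 (day 3), 18 and 25 (day 5), and 35 and 23 (day 7). Its log2 fold changes were -4.05 ± 0.35, -3.20 ± 0.33 and -2.58 ± 0.32 (edgeR, adjusted p = 9.85e-06, 3.53e-05 and 1.52e-04). Plec, the cross-linker plectin, was 1 of the 2 that rose at day 3 (0.41 ± 0.10, adjusted p = 0.00717). In whole nerve 12 were tested, none rose, and 8, 7 and 4 fell, beside 22.5%, 19.5% and 15.9% of all genes. Their medians there were -0.61, -0.35 and -0.25, and those of all genes 0.0029, -0.0086 and 0.016. Cryab, a small heat shock protein that chaperones intermediate filaments, was at 1300.1 and 1317 FPKM in uncrushed whole nerve, 126 and 106 (day 3), 38.8 and 38.7 (day 5), and 129 and 110 (day 7). It was 14.9-, 45.0- and 14.5-fold lower (adjusted p = 7.38e-09, 2.20e-09 and 2.15e-08), and in Schwann cells 2.82-, 3.40- and 3.33-fold lower (adjusted p = 4.89e-05, 1.90e-05 and 2.95e-05). The smallest falls called in whole nerve were those of the spectraplakins, which join filament systems: Macf1 at days 3 and 7 (-0.38 ± 0.09 and -0.36 ± 0.09, adjusted p = 0.00509 and 0.0109) and Dst at day 5 (-0.31 ± 0.09, adjusted p = 0.0165). Schwann cell markers were at 28755 and 34661 summed TPM in uncrushed and 3721 to 7594 in crushed whole nerve, and their part in these falls was not tested.

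By the pattern of log2 TMM-scaled CPM over the 16 libraries, each main member had other nearest genes. Gfap was most like Birc3 (r = 0.981), LOC100361104 (0.978) and Rcan1 (0.977). Nes was most like Pomgnt1 (0.967), Paqr3 (0.964) and Pcdh20 (0.961). Vim was most like Tmem206 (0.993), Tmprss11f (0.988) and Plpp1 (0.988), and Synm most like Xpnpep3 (0.968), Lrrfip1 (0.965) and Lrrc1 (0.963). After each other, Nefl was most like Hdac2 (0.905) and Podxl2 (0.903), and Nefm most like Fhdc1 (0.928) and Socs2 (0.907). Within the family the correlation of Vim was 0.877 with Synm and 0.344 with Gfap, and that of Nes was 0.795 with Synm and -0.290 with Gfap. In the modules the authors deposited Vim and Nes fell in module 10, Synm in module 8 and Gfap in module 7, and Nefh, Prph, Ina and Des in none. All these correlations share 16 libraries of 8 groups and are given without a test.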

How the data were processed

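RNA of 16 libraries was measured by RNA sequencing of amplified cDNA without molecular identifiers, so counts are not independent molecules. Per the labels and the study's methods, the authors aligned reads with STAR to Rnor_6.0 and deposited expected counts per gene estimated by RSEM, together with the TPM and FPKM that RSEM derived from them. They also deposited a gene length in bases and a module number for 6274 genes, obtained by co-expression analysis. A further 8 FPKM columns name no preparation and were not used. Library totals are the sums of expected counts, and their range limits the precision of low genes.

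For testing, expected counts were rounded to integers and analysed in R 4.3.3 with edgeR 4.0.16 (TMM scaling, filterByExpr, quasi-likelihood test). Schwann cells, whole nerve and all 16 libraries were fitted separately, with group as the only term. All adjusted p-values are Benjamini-Hochberg values over all genes of a fit, called below 0.05. Levels are FPKM, and TPM for shares and sums. Promoter sequences came from RefSeq on GRCr8, a build other than that of the files. By rule, the 10 members were described in the comparisons where they were tested, with those not called given mostly as a range, and of 2 further gene lists the called genes with the highest and lowest fold change. Members, lists and markers were chosen with earlier results of these data known. Alternatives were DESeq2 1.42.0, upper quartile scaling, no filter or at least 10 counts, a replicate block, other sets of libraries and leaving out each library. Library totals without scaling factors were added after seeing the data, because FPKM and TMM-scaled values of whole nerve differed. Likeness was the Pearson correlation of log2(TMM-scaled CPM + 1). Tables and figures were made in Python 3.11.15 with numpy 2.4.6, pandas 2.3.3 and matplotlib 3.10.9, and limma 3.58.1 was loaded by edgeR. Values of some genes in the marker and linker lists are not reported here.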

Additional observations from a re-analysis of the deposited data

Results flagged for a closer look

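The effect of crush on 3 members differed between Schwann cells and whole nerve by the test of the difference itself (edgeR, fit of 16 libraries, log2 scale, Schwann cells minus whole nerve). For Gfap the difference was -1.81, -2.42 and -2.99 at days 3, 5 and 7. For Nes it was 3.17, 2.82 and 2.83. For Synm it was 0.58 at day 3, which was lost with library totals alone. Within these 16 libraries the type of cell and the dissociation cannot be told apart, and the dissociated nerve that the study describes was not analysed here.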

How the results depend on the processing

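The alternatives followed 127 tested values of members, of which 84 were called. Values between days entered only where called, and those with all groups at the floor were left out, so this is no rate of calls. Of the 84, 56 kept their direction and call under every alternative run, while 28 lost the call or direction under at least 1. With library totals alone, chosen after seeing the data, 2 values reversed in whole nerve: Gfap at day 3 (0.30) and Nes at day 7 (0.038). The number of members called at day 5 against day 3 in Schwann cells (1) was 2 with DESeq2, 3 without the filter, 0 in the fit of all 16 libraries and 3 with only the 4 libraries compared. At day 7 against day 5 (1) it was 2 with DESeq2, 3 without the filter, and 0 with upper quartile scaling or library totals. Without the filter, whole nerve at day 7 against day 5 gave 2 members and the difference of effects at day 3 gave 5. Over all genes, 291 were called at day 7 against day 5 in Schwann cells, and 512 with DESeq2, 1048 without the filter, 179 with the replicate block, 472 in the fit of all 16 libraries and 441 with the 4 libraries compared. In whole nerve that comparison gave 1172, and 2247 without the filter, and day 7 against uncrushed gave 4952, and 7959 with library totals. Library totals moved the share of called genes that were higher from 47.4%, 45.8% and 44.6% to 19.5%, 24.9% and 23.2% for the differences of effects at days 3, 5 and 7, from 45.2% to 58.9% between uncrushed preparations, and in Schwann cells from 48.9% to 62.9% (day 5 against day 3) and 48.8% to 62.5% (day 7 against day 3). At day 7 against day 5 there, upper quartile scaling moved it from 60.5% to 71.3%. The cause was not tested.

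No pairing by replicate number was seen: in 0 of 28 pairs of groups was the correlation of deviations above 0.1. The labels give no pairing, and a shared batch hidden by the spread between pools could be missed. With a replicate block 0 members were called at day 7 against day 5 in Schwann cells, and the calls of Prph at day 7 (adjusted p = 0.0731) and of Nefm between uncrushed preparations (adjusted p = 0.0533, edgeR) were lost.

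Leaving out 1 library each, the log2 values of Des in Schwann cells ranged from -0.78 to 0.95, -0.63 to 1.48 and -0.31 to 1.43 at days 3, 5 and 7, and its difference of effects at day 3 from -0.22 to 1.52. Nefh between preparations at day 3 ranged from -4.34 to 2.87, and its differences of effects at days 3 and 7 from -1.60 to 5.60 and -2.71 to 1.17. Its Schwann cell libraries were at or under the floor of 3 counts in all these groups. These Nefh values therefore give neither a size nor a direction. Nefl between preparations ranged from -0.19 to 1.05 uncrushed and -0.046 to 0.79 at day 5, its differences of effects at days 5 and 7 from -0.62 to 0.62 and -0.069 to 1.17, and whole nerve at day 3 from -0.31 to 1.31. Nefm between preparations at day 5 ranged from -0.0013 to 0.65 and its difference of effects at day 7 from -0.42 to 0.34. Nes in whole nerve at day 3 ranged from -0.024 to 0.16, Synm between uncrushed preparations from -0.066 to 0.25, and the differences of effects of Prph at days 3 and 5 from -1.27 to 0.027 and -0.56 to 0.042. Members called ranged from 4 to 5 between uncrushed preparations. In Schwann cells they ranged from 0 to 1 at day 5 against day 3, 3 to 4 at day 7 against day 3 and 0 to 0 at day 7 against day 5. In whole nerve they ranged from 4 to 5 at day 5 and 3 to 5 at day 7 against uncrushed, 1 to 2 at day 5 against day 3, 2 to 5 at day 7 against day 3 and 0 to 0 at day 7 against day 5. Over all genes, leaving out any library of the comparison took the genes called at day 5 against day 3 from 1863 to between 541 and 737 in Schwann cells and from 1828 to between 510 and 652 in whole nerve, and those at day 7 against day 5 in Schwann cells from 291 to between 31 and 123. Where the count moved by over 1.5 times, it went from 1172 to between 323 and 520 at day 7 against day 5 in whole nerve, and at day 7 against day 3 from 3140 to between 1533 and 1772 in Schwann cells and from 3357 to between 1635 and 1709 in whole nerve. Low counts limit Nefh, at 0 to 3 in Schwann cells and 0 to 21 in whole nerve, and Ina, at 0 to 12 over all libraries.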
